A study of Homo sapiens with 6 samples.

Results

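Acetylated lysines on histone tails are read by bromodomain proteins, and the transcription machinery that follows is gated by the kinase P-TEFb. The genes followed here were BRD2 and BRD3, readers of the BET (bromodomain and extraterminal) family, the P-TEFb genes CDK9, CCNT1 and CCNT2, and the genes HEXIM1, HEXIM2, LARP7 and MEPCE, whose products hold P-TEFb inactive on the small nuclear RNA 7SK. They are 9 of the 47470 genes listed in the count files, and all 9 passed the filter on low counts. They were chosen by symbol for these roles, with earlier results of these data known. RNA had been sequenced from HEK293T, an established line of human embryonic kidney origin with SV40 large T antigen, in 3 untreated libraries and in 3 libraries which the labels name VPA-treated. The latter cells had been kept for 1 day with 1 mM VPA (valproic acid), which inhibits histone deacetylases of class I and IIa. The untreated cells received fresh medium without VPA. Serum and the antibiotic gentamicin are named for the culture of these cells, and no other agent or allele is named for either group. One cell line, a single dose and a single time were studied.

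P-TEFb consists of the kinase CDK9 and a T-type cyclin, and it phosphorylates RNA polymerase II and the pausing factors, which lets paused polymerase move into the gene body. Much of it is kept in a reserve, in which MEPCE caps and LARP7 protects 7SK RNA and a HEXIM protein bound to that RNA blocks the kinase. BET proteins bind acetylated histones through paired bromodomains, and deacetylase inhibitors are known to raise histone acetylation and to free P-TEFb from 7SK. HEXIM1 is also widely used as a readout of BET inhibition, under which its RNA is known to rise.

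The promoters of 4 of these genes are shown because their RNAs carry the results below, BRD2 and MEPCE with the largest decreases, CDK9 as the one gene that rose and HEXIM1 as the main inhibitor gene. Each is the 250 bases before the start of the MANE Select transcript (the reference transcript of a gene agreed by NCBI and Ensembl), from RefSeq on GRCh38.p14, 5' to 3', and all 9 genes matched by symbol. Capitals mark any of 6 motifs searched on both strands, which were the TATA box as TATATAA, the GC box as GGGCGG, the CCAAT box by its letters, the E-box as CACGTG, the core of the NRF1 motif as GCATGCGC and the core of the CRE motif as TGACGT.
BRD2, chr6:32968344-32968593, plus strand: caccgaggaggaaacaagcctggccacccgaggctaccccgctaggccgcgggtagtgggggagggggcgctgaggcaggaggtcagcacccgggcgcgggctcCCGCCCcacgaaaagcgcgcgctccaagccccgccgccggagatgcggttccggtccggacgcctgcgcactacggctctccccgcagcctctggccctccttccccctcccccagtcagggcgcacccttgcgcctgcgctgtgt
MEPCE, chr7:100429581-100429830, plus strand: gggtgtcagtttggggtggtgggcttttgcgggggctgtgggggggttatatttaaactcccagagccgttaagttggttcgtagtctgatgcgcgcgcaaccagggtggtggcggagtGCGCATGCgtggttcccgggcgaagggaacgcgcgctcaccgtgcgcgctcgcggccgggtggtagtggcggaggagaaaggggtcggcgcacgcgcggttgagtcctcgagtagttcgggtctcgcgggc
CDK9, chr9:127785784-127786033, plus strand: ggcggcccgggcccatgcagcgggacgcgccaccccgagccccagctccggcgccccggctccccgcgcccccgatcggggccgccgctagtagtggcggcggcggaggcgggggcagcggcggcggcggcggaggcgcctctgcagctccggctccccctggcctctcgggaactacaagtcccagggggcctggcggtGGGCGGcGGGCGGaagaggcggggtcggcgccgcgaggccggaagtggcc
HEXIM1, chr17:45148225-45148474, plus strand: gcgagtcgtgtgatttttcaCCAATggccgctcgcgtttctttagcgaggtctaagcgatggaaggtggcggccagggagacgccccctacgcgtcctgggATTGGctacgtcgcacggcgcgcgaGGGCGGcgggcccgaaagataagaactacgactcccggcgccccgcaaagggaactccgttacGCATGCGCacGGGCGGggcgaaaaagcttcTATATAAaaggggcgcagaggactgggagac
In these letters HEXIM1 held the one TATATAA, 31 bases before its start, a string found in 2.42% of all 35116 promoter windows of the same length. GGGCGG was in 7 of the 9 genes' windows against 42.6% of all windows, CCAAT in 5 against 32%, GCATGCGC in 3 (HEXIM1, CCNT2 and MEPCE) against 2.63%, TGACGT in 2 (HEXIM2 and LARP7) against 7.1% and CACGTG in 1 (CCNT1) against 6.34%. In CCNT2 the GCATGCGC matches on the 2 strands overlap, as do 2 of the TGACGT matches in LARP7 and 2 of the GGGCGG matches in BRD3. All windows here means every start in the promoter set, with several for some genes, while each of the 9 genes has 1 window. They were not matched to the 9 genes in GC content or RNA level, so the shares are not a test. A match is a string of letters and not a site of binding. The GC content of the 9 windows ranged from 55.2% to 86.8%, against a median of 58% over all windows. No motif was found in all the genes that fell and absent from the others. Each motif other than the GC box was found only in genes that fell, but in some of them only. As 7 of the 9 genes fell, a motif held by few genes is easily found only among them. BRD3, in which no change was detected, and CDK9, which rose, held GC boxes alone. Whether any motif goes with the direction of change was not tested.

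Counts on genes lay between 18622267 and 18828495 per library, so depth differed little. The kidney-associated genes PAX2, EYA1, SALL1 and LHX1 had at least 10 counts in every library. The markers of other cell types PTPRC, ALB, PECAM1 and MYH7 stayed under 10 counts in every library, and PTPRC was at 0 in the 3 untreated libraries and at 3 to 5 counts in the VPA-treated ones. The part of this difference in the results was not tested. The labels do not say whether the 3 libraries of a group came from separate cultures, so that p-values measure the spread between these libraries, which may be technical. In bulk RNA, a smaller share of cells with a transcript cannot be told apart from less of it per cell.

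Of the 9 genes 7 were lower and 1 was higher in VPA-treated cells at an adjusted p under 0.05 in edgeR's quasi-likelihood test, and BRD3 did not pass, so that 8 of 9 were called, against 62.9% of all genes tested in either direction. By direction, 30% of the 15298 genes tested were lower and 32.9% higher by the same rule. The 9 genes were chosen with earlier results of these data known, so their shares are a description and not a test. The values of all treated libraries lay below those of all untreated ones in 6 of the 9 genes and above them in 1, against 31% and 34.8% of all genes tested. Decreases were more frequent among well-counted genes. Of 4640 genes with at least 1000 normalized counts on average, a limit set after the result was seen, 57.4% were lower and 14.6% higher, and of the 8 of the 9 genes in that class 6 were lower and 1 higher. Normalized counts are TMM-scaled and set to the mean library size. None of the 9 reached the fold change threshold that the study applied, which is 1 in size on the log2 scale and with the adjusted p was passed upwards by 12% and downwards by 0.503% of all genes. The median log2 fold change of the 9 was -0.31, against 0.0058 over all genes tested. For the 8 in the well-counted class it was -0.24, against -0.15 over that class.

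**Figure D1:**
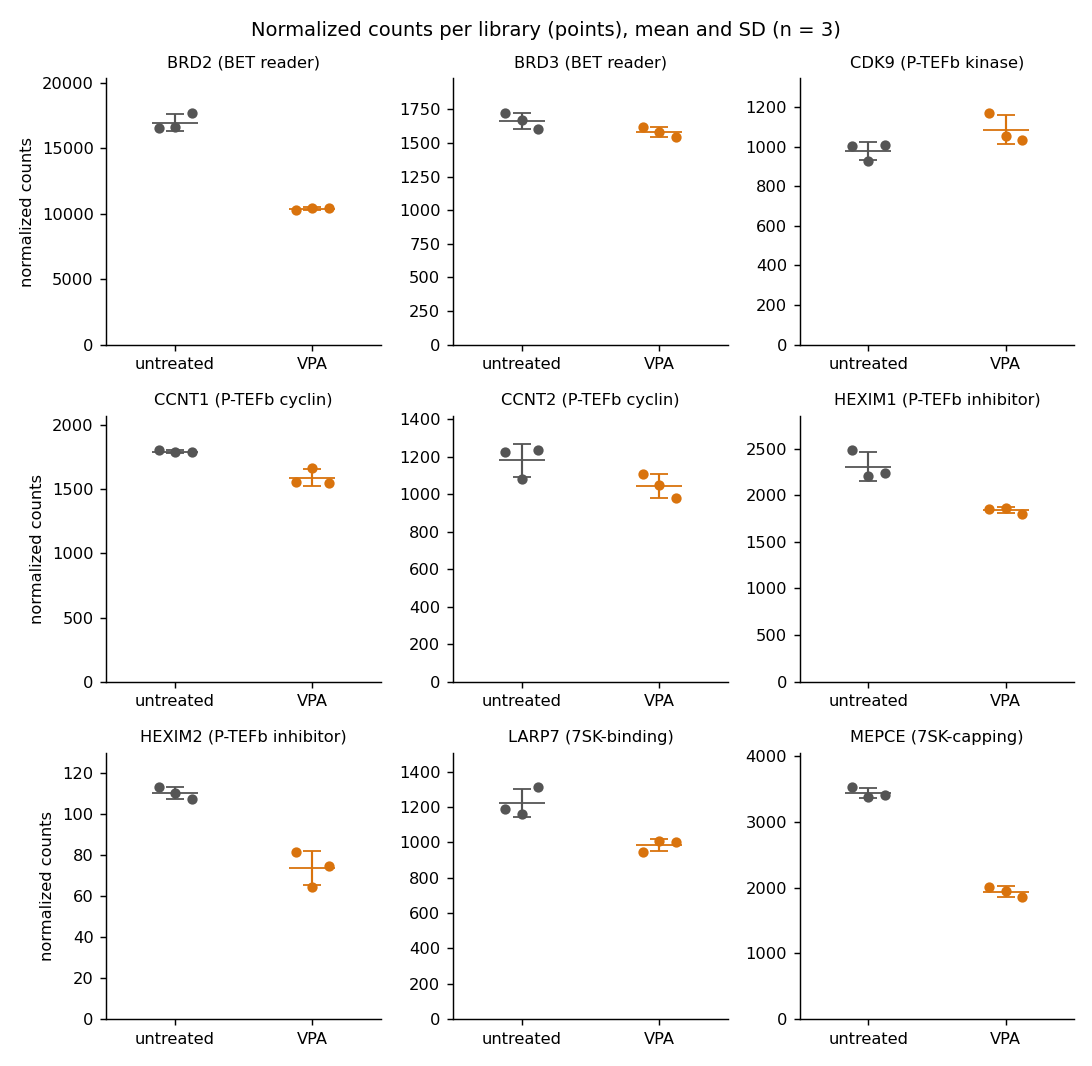
Normalized counts (y axis, from 0) of the 9 genes in each of the 3 untreated and 3 VPA-treated libraries (points), with the mean (bar) and SD (whiskers). The groups stand apart in 7 panels and overlap in BRD3 and CCNT2, and the widest gaps are in BRD2 and MEPCE.

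BRD2, a BET reader that binds acetylated histone H4 and couples it to transcription, had 16504, 16636 and 17672 normalized counts in the untreated libraries. In the VPA-treated libraries it had 10242, 10453 and 10399. Every treated library was thus well below every untreated one, and the 3 treated libraries differed little from each other. The mean fell by 38.8%, from 16937 ± 639.5 to 10365 ± 109 (SD, n = 3 each, log2 fold change -0.71, SE 0.041, adjusted p = 2.83e-12, edgeR). Of all genes tested 1.79% had a lower log2 fold change. BRD2 lies on chromosome 6 from 32968594 to 32981505 on the plus strand, and 1.11% of its MANE Select transcript overlaps exons of HLA-DMA on the opposite strand, a gene that had 13 to 58 counts per library. An antisense model of GENCODE 44 without a symbol covers a further 11.6% and is not listed in the files under that identifier.

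BRD3, the other BET reader measured, had 1722, 1669 and 1604 normalized counts without VPA and 1623, 1580 and 1544 with it. The ranges of the groups overlapped. The log2 fold change was -0.07 with a standard error of 0.045 (adjusted p = 0.165, edgeR), so a difference was not detected. The opposite-strand gene BRD3OS shares 22.7% of the BRD3 transcript and had 637 to 699 counts in untreated and 872 to 946 in VPA-treated libraries. The strand setting of the counting is not given in the sources used here, and any effect of this overlap on the BRD3 count was not tested. BRD3 lies on chromosome 9 from 134030305 to 134068548 (minus strand).

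The 2 readers were also compared by their ratio within each library, which needs no scaling between libraries. There were 9.58, 9.96 and 11.02 counts of BRD2 per count of BRD3 without VPA and 6.31, 6.61 and 6.73 with it. The ratio was lower in every treated library than in every untreated one, with a difference of -0.63 in mean log2 ratio and a standard error of 0.066 (exact permutation test, two-sided, p = 0.1, adjusted p = 0.12 over 6 ratios). An exact test of 3 libraries against 3 cannot give a p below 0.1, so no ratio could pass the threshold.

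Among the P-TEFb genes the kinase was higher and both cyclins were lower, although the cyclins turned to values above 0 when libraries were scaled on ribosomal protein genes. CDK9, the catalytic subunit, had 1004, 926 and 1007 normalized counts in untreated and 1169, 1055 and 1032 in VPA-treated libraries. The groups did not overlap, but the lowest treated library was close to the highest untreated one. The mean rose by 10.9%, from 979 ± 46.2 to 1085 ± 73.4 (SD, n = 3 each, log2 fold change 0.15, SE 0.056, adjusted p = 0.0254, edgeR). The call was lost with DESeq2 (adjusted p = 0.147), without untreated replicate 2 (log2 fold change 0.10, adjusted p = 0.168, edgeR) and without VPA-treated replicate 1 (0.092, adjusted p = 0.173, edgeR), so that single libraries decided it. CDK9 lies on chromosome 9 from 127786034 to 127790792 on the plus strand.

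CCNT1 codes for cyclin T1, the partner through which most P-TEFb recognises its substrates. It had 1802, 1786 and 1787 normalized counts in untreated and 1554, 1665 and 1551 in VPA-treated libraries, and the groups did not overlap. The decrease was 11.3% (log2 fold change -0.17, SE 0.045, adjusted p = 0.00207, edgeR). CCNT2, which codes for the alternative partner cyclin T2, had 1227, 1080.3 and 1234 normalized counts in untreated and 1107, 1048 and 979.5 in VPA-treated libraries. Here untreated replicate 2 lay below VPA-treated replicate 1, so the groups overlapped. The log2 fold change was -0.18 with a standard error of 0.058 (adjusted p = 0.0117, edgeR), and without VPA-treated replicate 3 it was -0.13 and no longer passed (adjusted p = 0.0793, edgeR). The CCNT1 gene is on the minus strand of chromosome 12, from 48688458 to 48716707, and CCNT2 on the plus strand of chromosome 2, from 134918822 to 134959342.

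The ratio of CCNT1 to CCNT2 counts was 1.52 ± 0.113 in untreated and 1.52 ± 0.105 in VPA-treated libraries (SD, n = 3 each), with a difference in mean log2 ratio of 0.0020 and a standard error of 0.084 (p = 1, two-sided exact permutation test). The sum of both cyclins relative to CDK9 was 3.01, 3.10 and 3 in untreated and 2.28, 2.57 and 2.45 in VPA-treated libraries. All treated libraries were lower, by 0.32 in mean log2 ratio with a standard error of 0.053 (from 1.60 to 1.28, exact permutation test, two-sided, p = 0.1, adjusted p = 0.12). This shift between subunits does not depend on how the libraries were scaled.

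The inhibitor genes both fell. HEXIM1, the main P-TEFb inhibitor, had 2481, 2207 and 2234 normalized counts in untreated and 1848, 1868 and 1800.3 in VPA-treated libraries. All treated libraries were lower than all untreated ones, among which replicate 1 was highest. The decrease was 20.3% (log2 fold change -0.33, SE 0.048, adjusted p = 3.92e-06, edgeR), and the log2 fold change lay between -0.37 and -0.28 with each library left out. With ribosomal protein scaling it was -0.060 and the call was lost (adjusted p = 0.309, edgeR). Its paralog HEXIM2 had far fewer counts, with 113, 109.8 and 107 normalized counts in untreated and 81.4, 64.5 and 74.6 in VPA-treated libraries. These groups did not overlap either. The decrease was 33.1% (log2 fold change -0.58, SE 0.13, adjusted p = 0.000398, edgeR), and it rests on 67 to 109 raw counts per library. Both genes lie on the plus strand of chromosome 17, HEXIM1 from 45148475 to 45152099 as 1 exon and HEXIM2 from 45160174 to 45170040, with 8074 bases between them. Opposite-strand models of GENCODE 44, neither listed in the files under its name, cover 14.3% of the HEXIM1 and 71.1% of the HEXIM2 transcript.

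The ratio of HEXIM1 to HEXIM2 counts was 21.9, 20.005 and 20.8 in untreated and 22.6, 28.8 and 24.0 in VPA-treated libraries. The groups did not overlap, with a difference of 0.26 in mean log2 ratio and a standard error of 0.11 (exact permutation test, two-sided, p = 0.1, adjusted p = 0.12), which was 0.16 without VPA-treated replicate 2. Both inhibitors together had 2.58, 2.50 and 2.32 counts per CDK9 count in untreated and 1.65, 1.83 and 1.82 in VPA-treated libraries. That ratio was lower in every treated library, from a mean of 2.47 ± 0.132 to 1.77 ± 0.101 (SD, n = 3 each), a log2 difference of -0.48 with a standard error of 0.066 (exact permutation test, two-sided, p = 0.1, adjusted p = 0.12). Protein and the assembled complexes were not analysed here.

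**Figure D2:**
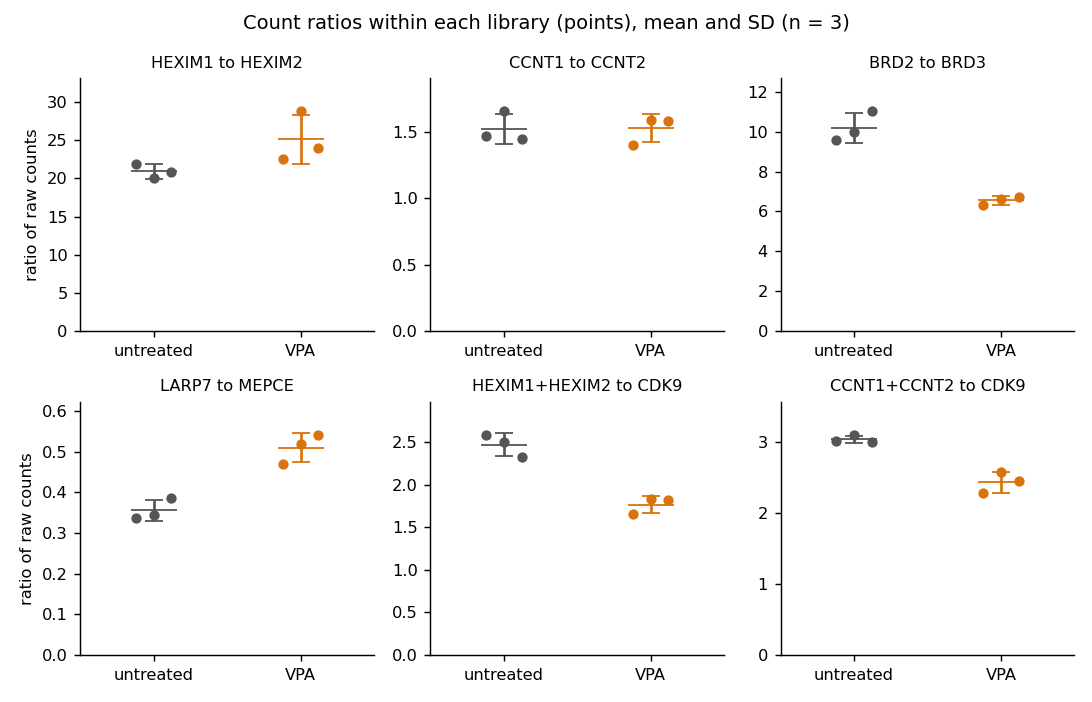
Ratios of raw counts within each library (y axis, from 0) for 6 pairs of genes or sums, as points with mean (bar) and SD (whiskers) for 3 untreated and 3 VPA-treated libraries. BRD2 to BRD3, the inhibitors to CDK9 and the cyclins to CDK9 were lower, and LARP7 to MEPCE and HEXIM1 to HEXIM2 higher, in all VPA-treated libraries, while CCNT1 to CCNT2 overlapped.

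Of the proteins that bind 7SK RNA directly, MEPCE, the enzyme that places a methyl cap on its 5' end, had the largest change of the 9 genes. It had 3527, 3380 and 3407 normalized counts in untreated and 2013, 1945 and 1853 in VPA-treated libraries. The highest treated library was far below the lowest untreated one. The mean fell by 43.7%, from 3438 ± 78.4 to 1937 ± 80.6 (SD, n = 3 each, log2 fold change -0.83, SE 0.043, adjusted p = 3.90e-13, edgeR), and 1.14% of all tested genes had a lower one. MEPCE lies on chromosome 7 from 100428790 to 100434118 on the plus strand. In GENCODE 44 a gene model without a symbol shares 71.8% of its MANE Select transcript on the same strand, and is not listed in the files under its identifier. Of the 100-base windows of the MEPCE transcript 70.9% occur in that model too, so the MEPCE count may include its reads, and their part in the decrease was not tested.

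LARP7, which binds the 3' end of 7SK RNA and keeps it stable, had 1191, 1162 and 1312 normalized counts in untreated and 947, 1007 and 1002 in VPA-treated libraries. Again the groups did not overlap, but the gap was narrower. The decrease was 19.4% (log2 fold change -0.31, SE 0.054, adjusted p = 3.40e-05, edgeR), and the call was lost with ribosomal protein scaling (-0.042, adjusted p = 0.513, edgeR). LARP7 lies on chromosome 4 from 112637143 to 112657586 on the plus strand, and exons of MIR302CHG on the opposite strand cover 39.8% of its transcript but had 1 to 5 counts per library. The ratio of LARP7 to MEPCE was 0.338, 0.344 and 0.385 in untreated and 0.470, 0.518 and 0.541 in VPA-treated libraries, a difference of 0.52 in mean log2 ratio with a standard error of 0.084 (exact permutation test, two-sided, p = 0.1, adjusted p = 0.12). The groups did not overlap.

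**Figure D3:**
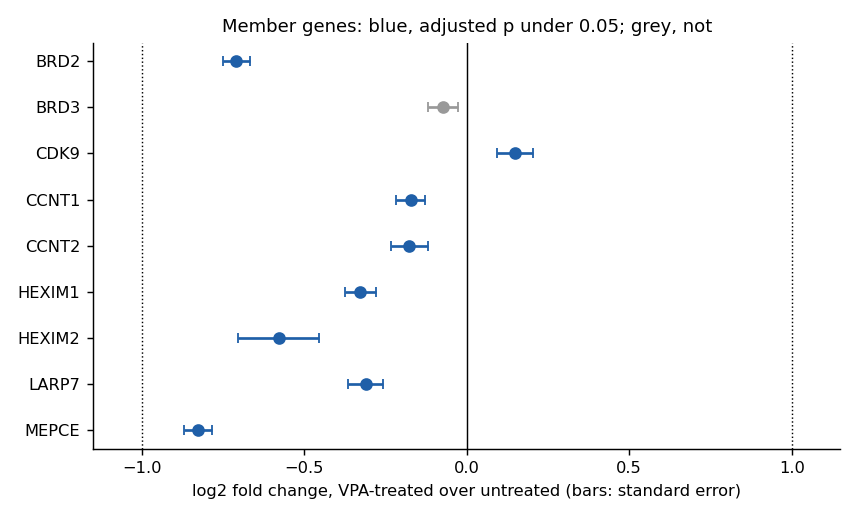
Log2 fold change of VPA-treated over untreated cells (x axis) for the 9 genes, with standard errors from edgeR as bars, n = 3 libraries per group. Blue points passed an adjusted p of 0.05 and the grey one, BRD3, did not, and none reached the dotted lines at a log2 fold change of 1 in size.

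Levels can be compared between these genes only per length. In untreated cells BRD2 had the highest level, 3417 ± 129 normalized counts per kilobase of MANE Select transcript (SD, n = 3). MEPCE followed with 1218 ± 27.8, HEXIM1 with 637 ± 41.8 and LARP7 with 579.7 ± 37.8, the last 2 with overlapping errors. CDK9 had 394 ± 18.6, BRD3 294 ± 10.5, CCNT1 264 ± 1.29, CCNT2 171 ± 12.6 and HEXIM2 76.5 ± 2.01 normalized counts per kilobase. After VPA these levels were 2091 ± 22.1 for BRD2, 686 ± 28.6 for MEPCE, 507 ± 9.60 for HEXIM1, 468 ± 15.7 for LARP7 and 437 ± 29.5 for CDK9. By this length the order of the 9 genes was the same in both groups, but CDK9 and LARP7, which were apart in untreated cells, came within their spread of each other. The annotation used for counting is not given in the sources used here, and the order depends on the length chosen. Per kilobase of the union of annotated exons, an alternative added after the values were seen, LARP7 had 151 ± 9.85 normalized counts in untreated cells and stood below CDK9 (326 ± 15.4), CCNT1 (243 ± 1.19) and BRD3 (242 ± 8.63), and after VPA it had 122 ± 4.09 against 361 ± 24.4 for CDK9. BRD2, MEPCE and HEXIM1 were the first 3 and CCNT2 and HEXIM2 the last 2 by either length.

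The genes whose pattern over the 6 libraries was most like that of MEPCE were KCTD15, TFAP2A and KAT2A. Their root mean square distances from MEPCE, on log2 normalized counts centred on the untreated mean, were 0.021, 0.029 and 0.032, the smallest of 12185 genes with at least 50 normalized counts on average. By this measure genes of like fold change lie near each other by construction. KCTD15 and TFAP2A, which were nearer than KAT2A, had log2 fold changes of -0.80 and -0.85 (adjusted p = 2.71e-12 and 1.97e-12, edgeR). KAT2A codes for the acetyltransferase GCN5, itself a bromodomain protein. Its normalized count averaged 3974 ± 94.4 in untreated and 2189 ± 77.0 in VPA-treated libraries (SD, n = 3 each, log2 fold change -0.86, SE 0.042, adjusted p = 1.27e-13, edgeR).

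The scaling of the libraries set the zero line of these comparisons. Under TMM the median log2 fold change over the tested genes was 0.0058, and size factors of DESeq2 gave -0.0081. Upper quartile scaling gave 0.071, library totals 0.14 and a scaling that holds ribosomal protein genes level 0.27. BRD2, MEPCE and HEXIM2 were lower, with an adjusted p under 0.05, under all 5 scalings, and CDK9 was higher. HEXIM1 and LARP7 were no longer called with ribosomal protein scaling. CCNT1 also lost the call with library totals (-0.041, adjusted p = 0.443, edgeR), and CCNT2 with library totals (-0.045, adjusted p = 0.536, edgeR) and upper quartile (-0.11, adjusted p = 0.0983, edgeR). With ribosomal protein scaling CCNT1 and CCNT2 turned to 0.095 and 0.091 without passing the test, and BRD3 turned to 0.19 and passed (adjusted p = 0.00125, edgeR). A scaling moves all genes by nearly the same amount, so the differences between genes are nearly the same under each by construction.

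**Figure D4:**
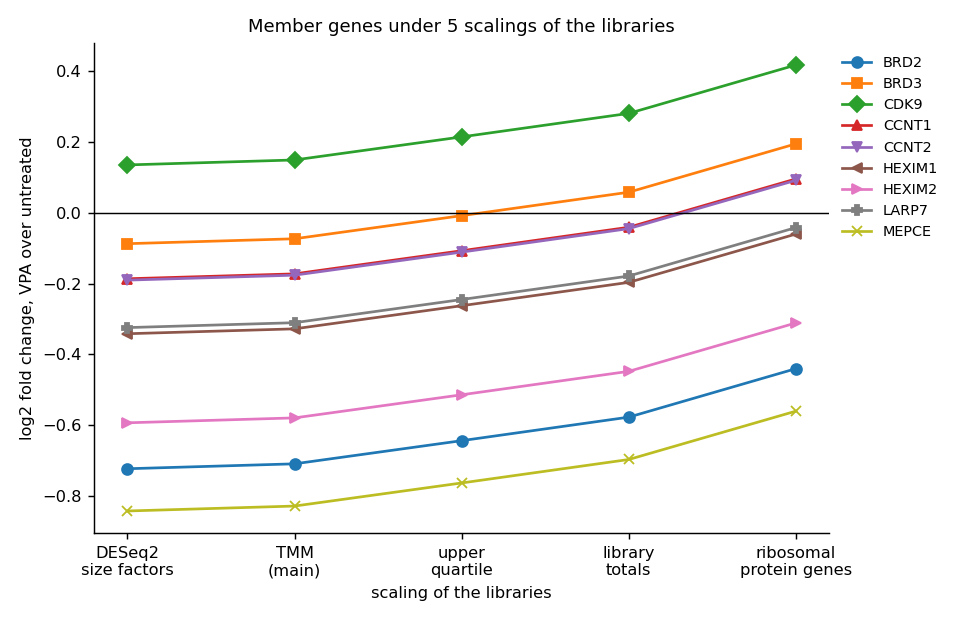
Log2 fold change of VPA-treated over untreated cells (y axis) for the 9 genes under 5 scalings of the libraries (x axis), 1 line per gene. The lines run in parallel by construction, MEPCE, BRD2 and HEXIM2 stay below 0 and CDK9 above it, while BRD3, CCNT1 and CCNT2 cross 0.

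To see how the surrounding machinery moved, 7 lists of other genes were counted, 72 genes in all, each tested in the same fit. Of these 52 (72.2%) were lower and 5 (6.94%) higher, against 30% and 32.9% of all genes. In the well-counted class it was 46 of 56 (82.1%) lower and 2 (3.57%) higher, against 57.4% and 14.6%. No list gene reached a log2 fold change of 1 in size. The lists, too, were chosen with earlier results of these data known, so these counts describe them and test nothing. These counts also moved with the scaling, to 29 lower and 12 higher with library totals and to 10 lower and 27 higher with ribosomal protein scaling. In 4 lists no gene was higher (pausing factors, PAF1 complex and SPT6, 7SK-linked genes and polymerase subunits), also at an unadjusted p under 0.05 in edgeR, where 0 were higher, and DESeq2 gave 0 in each of them as well. In the following each list is given by the gene of smallest p in each direction, and other genes are named where 5 or fewer fell in a class, after their values were seen.

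All 6 pausing factor genes, which code for the DSIF and NELF subunits that hold polymerase near the start site, were lower, with a median log2 fold change of -0.23. NELFCD fell from 2918 ± 85.5 to 2016 ± 88.7 normalized counts (n = 3 each with SD, log2 fold change -0.53, SE 0.044, adjusted p = 9.09e-10, edgeR). Of the 9 genes of the super elongation complex and its partners, which carry active P-TEFb to polymerase, 5 were lower and 2 higher, with a median of -0.13. ELL3 rose from 84.1 ± 8.91 to 143 ± 19.1 normalized counts (log2 fold change 0.76, SE 0.13, adjusted p = 2.08e-05, edgeR), and the scaffold gene AFF1 fell from 1499.7 ± 65.4 to 1218 ± 40.2 (log2 fold change -0.30, SE 0.048, adjusted p = 1.47e-05, edgeR). With ribosomal protein scaling AFF1 was at -0.032 and no longer called (adjusted p = 0.582, edgeR). The log2 fold change of ELL2, also higher, was 0.17, and AFF4 and EAF2, at 0.036 and 0.26, did not pass. The other genes lower in this list were ELL, EAF1, MLLT1 and MLLT3, with log2 fold changes of -0.38, -0.25, -0.13 and -0.35.

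Of 6 genes for other kinases of the polymerase tail and their cyclins, 4 were lower and 1 higher, with a median of -0.21. CDK12, a kinase of elongating polymerase, fell from 5732 ± 22.4 to 4197 ± 28.6 normalized counts (log2 fold change -0.45, SE 0.038, adjusted p = 1.12e-09, edgeR). CCNH, the cyclin of the initiation kinase CDK7, rose from 895 ± 47.7 to 1028 ± 5.83 (log2 fold change 0.20, SE 0.052, adjusted p = 0.00214, edgeR). CDK13, CCNK and MNAT1 were lower, at -0.20, -0.22 and -0.21, and CDK7 at -0.15 did not pass (adjusted p = 0.0630, edgeR). In the list of the PAF1 complex and SPT6, which travel with elongating polymerase, 5 of 7 genes were lower and 0 higher at an adjusted p under 0.05 in edgeR, with a median of -0.20. SUPT6H, which codes for SPT6, fell from 7213 ± 307 to 5993 ± 60.3 normalized counts (log2 fold change -0.27, adjusted p = 7.18e-06, edgeR), but with ribosomal protein scaling it was at 0.0013. PAF1, CTR9, RTF1 and SKIC8 were lower with values of -0.29 to -0.17, and LEO1 and CDC73 at -0.041 and -0.014 did not pass.

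Of 22 genes for bromodomain readers outside the BET family 16 were lower and 2 higher, with a median of -0.22. BRPF3, a scaffold of histone acetyltransferase complexes, fell from 2012 ± 111 to 1287 ± 35.5 normalized counts (log2 fold change -0.64, SE 0.048, adjusted p = 1.91e-10, edgeR). CECR2, a chromatin remodelling subunit, rose from 1159 ± 26.6 to 1307 ± 56.5 (log2 fold change 0.17, SE 0.049, adjusted p = 0.00394, edgeR), and PHIP was higher by 0.11. BPTF, BAZ2B, BRWD1 and ZMYND8, between -0.093 and 0.096, did not pass. BRD2, with -0.71, was lower than each of these 22 genes in log2 fold change, a description with no test. The list does not hold every bromodomain gene, and KAT2A, which is outside it, was lower than BRD2 at -0.86.

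Of 10 genes linked to 7SK RNA or to the release of P-TEFb 8 were lower and 0 higher at an adjusted p under 0.05 in edgeR, with a median of -0.28. SRSF2, a splicing factor known to bind 7SK, fell from 11231 ± 289 to 8749.7 ± 64.6 normalized counts (log2 fold change -0.36, SE 0.039, adjusted p = 6.95e-08, edgeR). RN7SK, the 7SK RNA itself, had 12 to 24 counts per library and a log2 fold change of -0.30 (adjusted p = 0.377, edgeR). It is made by RNA polymerase III without a poly(A) tail and has many genomic copies, so mRNA libraries and unique alignment do not measure it. JMJD6 at 0.040 did not pass either. Of the 12 subunit genes of RNA polymerase II 8 were lower and 0 higher, with a median of -0.14. POLR2A, which codes for the largest subunit that P-TEFb phosphorylates, fell from 12669 ± 212 to 9197 ± 119 normalized counts (log2 fold change -0.46, SE 0.039, adjusted p = 1.34e-09, edgeR). POLR2H, POLR2I, POLR2J and POLR2L, between -0.10 and -0.0081, did not pass.

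**Figure D5:**
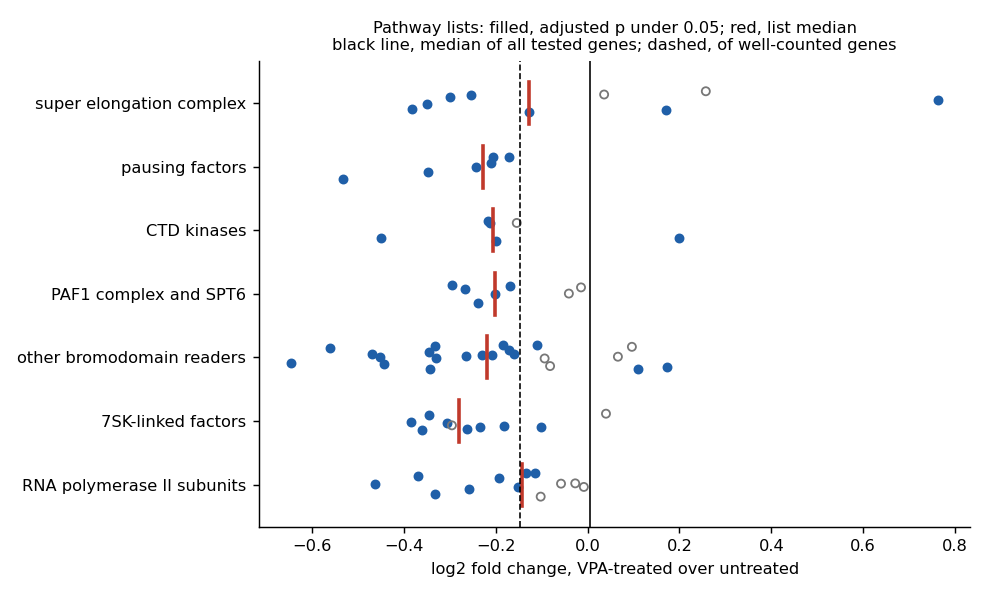
Log2 fold change of VPA-treated over untreated cells (x axis) for 72 genes in 7 lists (rows), 1 point per gene, filled where the adjusted p was under 0.05, with list medians as red bars. The solid line is the median of all tested genes (0.0058) and the dashed line that of the 4640 genes averaging 1000 or more normalized counts (-0.15), and most points lie left of both.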

How the data were processed

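Raw read counts per gene, as deposited by the authors, were used without change. Before deposit, reads had been trimmed and filtered (SOAPnuke), aligned on hg38 by STAR (2.7.10b per the processing notes) and assigned to genes by htseq-count (HTSeq 2.0.1 per the same notes). The library kit was strand-specific. Annotation and strand setting are not given in the sources used here. Reads with several places were set aside (2.81% to 2.92% of the reads listed), ambiguous reads were 1.97% to 2.10% and reads off genes 6.80% to 7.69%, and these lines entered neither library sizes nor tests. Exact 100-base windows shared with other GENCODE 44 transcripts came only from gene models that overlap the 9 genes, or from 1 further unnamed model for LARP7.

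The test was the quasi-likelihood test of edgeR 4.0.16 (R 4.3.3, robust fit, treatment alone in the model). TMM scaling, filterByExpr at a count minimum of 10 and a prior count of 0.125 were used, and p-values were adjusted by Benjamini-Hochberg over 15298 genes. Standard errors (SE) are log2 fold changes over the root of F. Ratios used raw counts with a pseudocount of 0.5. Groups came from the sample titles. In each of the 2 lists of cell type markers 1 gene is not reported here. Libraries of a group differed beyond sampling noise (chi-square per gene 1.62 to 4.80). The test was checked on simulated counts in which few genes changed, each by at least 1 in size on the log2 scale. That check does not cover smaller changes or the choice of scaling. Lists and the 9 genes were chosen with earlier results of these data known. Named were all 9 genes, in each list the gene of smallest p per direction, and the 3 genes nearest in pattern to the member of largest change.

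Alternatives were DESeq2 1.42.0, 4 other scalings, 2 other filters, other thresholds, a prior count of 2, the replicate number as a block, a pseudocount of 5 and leaving out each library. Coordinates and promoters are from RefSeq on GRCh38.p14, lengths and overlaps from GENCODE 44.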

Additional observations from a re-analysis of the deposited data

How the results depend on the processing

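Of 275 comparisons of a single gene's value with an alternative, 260 kept direction and side of the threshold. BRD2, HEXIM2 and MEPCE did so under all 15 alternatives tried for each, with log2 fold changes of -0.73 to -0.44, -0.66 to -0.31 and -0.86 to -0.56. With library totals BRD3 turned to 0.058, and CCNT1 at -0.041 and CCNT2 at -0.045 were no longer called. With ribosomal protein scaling BRD3 was at 0.19, CCNT1 at 0.095, CCNT2 at 0.091 and SUPT6H at 0.0013, all reversed, while HEXIM1 at -0.060, LARP7 at -0.042 and AFF1 at -0.032 lost the call. These scalings moved all genes upwards together. Upper quartile took the call from CCNT2 (-0.11) and DESeq2 that of CDK9 (0.12), and the cause was not tested. Leaving out 1 library gave CDK9 0.092 to 0.18, CCNT2 -0.24 to -0.13 and the CCNT1 to CCNT2 log2 ratio difference -0.033 to 0.062, with values below 0 of -0.023, -0.033, -0.029 and -0.026.

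Of the 9 genes 1 was higher and 7 lower. Ribosomal protein scaling gave 2 and 3, DESeq2 and an adjusted p under 0.01 gave 0 higher, and the fold change threshold of the study and glmTreat gave 0 in both directions, with leave-one-out ranges of 0 to 1 and 6 to 7. Of the list genes 5 were higher and 52 lower, against 8 higher with upper quartile, 12 and 29 when scaled by library totals, 27 and 10 when scaled by ribosomal protein genes, 3 higher with no filter or DESeq2, and 3 to 5 higher and 48 to 52 lower with 1 library left out.

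Libraries with the same replicate number shared deviations with r = 0.32, 0.087 and 0.24, not all above 0.1, so the numbers were not taken as pairs, although every library correlated best with its own number, a hint from the data alone. The replicate block left the calls of the 9 genes at 1 higher and 7 lower (BRD2 -0.71, MEPCE -0.83) and gave 5 higher and 56 lower list genes. A difference in BRD3 was not detected (adjusted p = 0.165 in edgeR, 0.0637 with the block), and HEXIM2 rests on 67 to 109 counts per library.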
